A study of Mus musculus with 12 samples.

Results

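The 9 genes described here are markers and regulators of the neural stem cell state and of Notch signaling: Nes, Sox2, Vim, Fabp7, Prom1, Hes1, Hes5, Notch1 and Dll1. They were chosen by name, and every array probe whose RefSeq accession belonged to one of them was taken, which gave 11 of the 55681 probes on the array. Of the 11 probes, 10 were among the 29361 that passed the filter on expression, and all 9 genes were represented by at least 1 of them. The 9 genes stand beside 14330 named genes that were expressed.

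The samples were neurospheres, which are floating aggregates of neural progenitor cells, grown from the telencephalon of C57BL/6 mouse embryos at embryonic day 13 and then differentiated on a coated surface without growth factors until RNA was taken on day 7. WT neurospheres came from wild-type embryos. APP_WT neurospheres were left untreated and came from embryos of the line B6.Cg-Tg (APPswe, PSEN1dE9, 85Dbo/J), which carries both transgenes of that name, the first for a chimeric mouse/human amyloid precursor protein. BK_APP and HOE_APP neurospheres carried the same transgenes and received 1 µM bradykinin (BK), the peptide ligand of the B2 kinin receptor, or 1 µM HOE-140, an antagonist of that receptor, on days 0, 3 and 6 of differentiation. The transgenic neurospheres were compared with WT, and either treatment with APP_WT. Each of these 3 comparisons was made on 4 two-color arrays with the dyes swapped, so that 12 arrays were analyzed and each array gave 1 log2 ratio per gene. Both treatments were compared with untreated transgenic neurospheres, and treated wild-type neurospheres were not analyzed here. The labels of the HOE_APP arrays name the same treatment in both channels, so the direction of every HOE_APP value is likely only. The channel taken for APP_WT on these arrays followed the APP_WT channels of the other comparisons more closely than the channel taken for HOE_APP did (correlations across probes of the difference between arrays of one dye layout, 0.364 to 0.611 against 0.232 to 0.378). The APP_WT versus WT arrays lay on one slide and the 8 treated arrays on another. Each array held both conditions of its ratio. The slide cannot be told apart from differences between the comparison of genotypes and those of treatments, or from differences in level between WT and the treated conditions.

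Notch signaling lets neighboring cells instruct each other. A ligand such as Dll1 on one cell binds a Notch receptor on the next, gamma-secretase with presenilin as its catalytic subunit releases the intracellular part of the receptor, and this part joins the DNA-binding protein Rbpj in the nucleus. In the developing telencephalon the Hes genes are its best known targets, and their repressor proteins hold back proneural genes and keep radial glia, the stem cells of this tissue, from becoming neurons. Presenilin also cuts the amyloid precursor protein. Nestin (Nes) and vimentin (Vim) are intermediate filament proteins of progenitors, Prom1 encodes the membrane protein CD133, Sox2 is a transcription factor of neural stem cells, and Fabp7 is a fatty acid binding protein of radial glia.

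The promoters of the 5 genes that passed the test between genotypes are shown to show where they hold the motif through which Rbpj binds DNA. The RefSeq table used here (GRCm38.p6) held 10 promoter entries for 8 of the 9 genes. TGGGAA, the letters taken for the Rbpj motif, was searched on both strands of the 250 bases before the start. It occurred in 3 of the 10 entries, those of Fabp7, Hes5 and one of the pair for Prom1, against 21.6% of all 32851 promoters. Hes5 was the only entry with 2 matches, which 2.77% of all promoters held, 226 and 82 bases before the start and on opposite strands. The motif of the Hes repressors, CACNAG, occurred in 5 of the 10 entries, against 36.7% of all promoters, and its matches did not overlap those of TGGGAA. Capitals mark TGGGAA or its complement TTCCCA. Hes5 is printed over chr4:154960673-154960922 (plus strand) and the others over the 120 bases nearest the start, Vim at chr2:13574191-13574310 (plus), Nes at chr3:87970973-87971092 (plus), Prom1 at chr5:44101737-44101856 (minus) and Dll1 at chr17:15376933-15377052 (minus). For Prom1 and Dll1 the start farther upstream was taken.
Hes5: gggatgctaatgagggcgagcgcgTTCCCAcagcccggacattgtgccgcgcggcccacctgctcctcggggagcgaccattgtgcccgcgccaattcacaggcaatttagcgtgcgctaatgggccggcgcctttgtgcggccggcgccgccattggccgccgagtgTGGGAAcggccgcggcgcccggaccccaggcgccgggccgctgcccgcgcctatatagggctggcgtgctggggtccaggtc
Vim: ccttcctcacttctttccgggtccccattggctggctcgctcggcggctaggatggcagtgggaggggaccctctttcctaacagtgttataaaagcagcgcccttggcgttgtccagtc
Nes: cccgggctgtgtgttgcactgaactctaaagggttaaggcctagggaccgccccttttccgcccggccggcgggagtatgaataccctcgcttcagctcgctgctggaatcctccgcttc
Prom1: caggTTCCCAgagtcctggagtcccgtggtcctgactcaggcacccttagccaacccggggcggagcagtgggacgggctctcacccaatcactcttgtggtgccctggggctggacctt
Dll1: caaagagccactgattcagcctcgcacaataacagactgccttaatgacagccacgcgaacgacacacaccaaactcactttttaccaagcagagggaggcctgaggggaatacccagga
A match describes these letters only and shows no bound site.

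Between APP_WT and WT neurospheres, 3 of the 9 genes were higher in APP_WT, the intermediate filament genes Vim and Nes and the CD133 gene Prom1, and 2 were lower, the Notch target Hes5 and the Notch ligand Dll1. Vim rose 1.96-fold, the largest change of the 9 genes, and Hes5 fell to 0.648 times its level in WT. Sox2, Fabp7, Notch1 and Hes1 did not pass the test. A gene was called where its limma adjusted p was below 0.05. At this threshold 17.0% of all expressed genes were higher and 8.03% lower in APP_WT, and of all expressed probes 11.6% were higher and 7.00% lower. Of the probes called 62.3% were higher, against 34.2% with the processed signals, 36.4% with array median centring and 32.6% with the deposited log2 ratios. In the bulk RNA of a neurosphere culture, fewer cells of a type and less RNA per cell cannot be told apart, which holds for each value below.

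The filament and membrane markers were higher on every array. For Vim, the log2 ratios of APP_WT to WT on arrays 1 to 4 were 0.78, 1.05, 0.91 and 1.14. All 4 lay far above 0, and the fitted log2 fold change was 0.97 (SE 0.07, limma adjusted p = 4.31e-06). For Nes, the log2 ratios were 0.05, 0.83, 0.61 and 0.70. Array 1 was close to 0 and the other 3 were not, and the fitted log2 fold change was 0.55 (SE 0.15, limma adjusted p = 0.0256). The call of Nes did not hold without array 2 (log2 fold change 0.35, limma adjusted p = 0.162), array 3 (0.57, limma adjusted p = 0.0828) or array 4 (0.53, limma adjusted p = 0.102). It was also lost with the processed signals of the scanner software (limma adjusted p = 0.0501), with no filter on dim probes (0.0509), with a fixed replicate block (0.0570) and within the slide (0.0546), and it held with a random block that let same-numbered arrays share an APP_WT sample (0.00973).

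Prom1 was measured by a pair of probes. On the brighter one the log2 ratios were 0.20, 0.26, 0.52 and 0.64, with a fitted log2 fold change of 0.40 (SE 0.05, limma adjusted p = 0.000204). Its arrays with APP_WT in Cy5 (3 and 4) were both above those with APP_WT in Cy3 (1 and 2). On the dimmer probe the log2 ratios were 0.47, 0.38, 0.03 and 0.35, and the log2 fold change was 0.31 (SE 0.07, limma adjusted p = 0.0102). Both probes were thus higher in APP_WT on all 4 arrays.

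The radial glial genes Sox2 and Fabp7 split by dye layout. With the HOE_APP channels as taken here, APP_WT was in Cy3 on arrays 1 and 2 of each comparison and in Cy5 on arrays 3 and 4. The dye therefore cannot be told apart from differences between the samples on these arrays, which holds for each dye split and dye coefficient given here. The log2 ratios of Sox2 were 0.04 and 0.13 on the arrays with APP_WT in Cy3 and −0.34 and −0.32 on those with APP_WT in Cy5. Its dye coefficient of −0.21 (limma adjusted p = 0.0294) was larger than its log2 fold change of −0.12 (SE 0.04, 95% interval −0.22 to −0.03, limma adjusted p = 0.0788), and dye coefficients passed the threshold for 4.82% of the expressed probes in this comparison. Sox2 passed as lower in APP_WT with the processed signals (log2 fold change −0.16, limma adjusted p = 0.0253), with the deposited log2 ratios (−0.16, limma adjusted p = 0.0197) and with array median centring (−0.28, limma adjusted p = 0.0194). For Fabp7 the log2 ratios were −0.55, −0.33, −0.09 and 0.28, lower with APP_WT in Cy3 than in Cy5, the reverse of Sox2. Its dye coefficient of 0.26 did not pass (limma adjusted p = 0.0824). Its log2 fold change was −0.17 (SE 0.08, 95% interval −0.35 to 0.00, limma adjusted p = 0.167), and only with array median centring did it pass (−0.38, limma adjusted p = 0.0189).

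**Figure D1:**
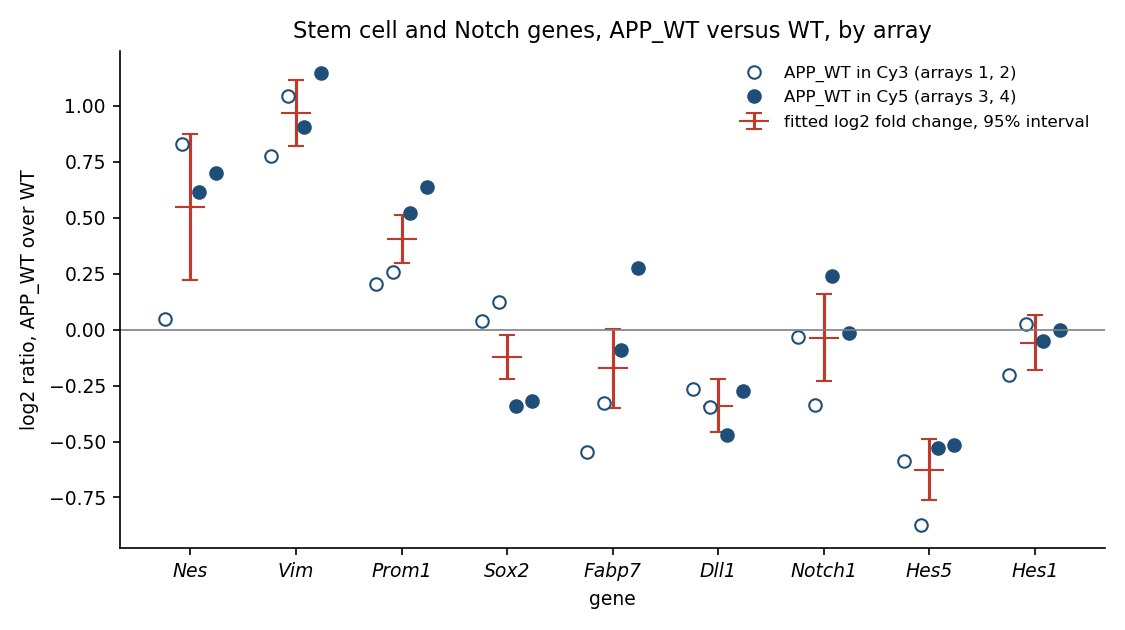
Log2 ratio of APP_WT to WT (vertical axis) of each gene (horizontal axis) on each of the 4 arrays, open where APP_WT was labeled with Cy3 and filled where it was labeled with Cy5, with the fitted log2 fold change and its 95% interval in red. Vim, Nes and Prom1 lie above 0 and Hes5 and Dll1 below 0 on all 4 arrays, while Sox2 is above 0 at the open points and below 0 at the filled ones.

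The ligand and the target of the pathway were lower together. Dll1, the ligand by which newborn neurons activate Notch in neighboring progenitors, had log2 ratios of −0.27, −0.35, −0.47 and −0.27. All 4 arrays lay below 0 within a narrow range, and the log2 fold change was −0.34 (SE 0.05, limma adjusted p = 0.00139). For Hes5 the log2 ratios were −0.59, −0.87, −0.53 and −0.51, and the log2 fold change was −0.63 (SE 0.06, limma adjusted p = 5.95e-05). Array 2 had the lowest value, and the other 3 lay within a short span of each other. Vim, Prom1, Hes5 and Dll1 kept their direction and their call under each of the alternatives run, with log2 fold changes of 0.76 to 1.04 for Vim, 0.25 to 0.43 for Prom1, −0.81 to −0.55 for Hes5 and −0.48 to −0.29 for Dll1.

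The receptor Notch1 and the target Hes1 gave no call. For Notch1 the log2 ratios were −0.03, −0.34, 0.24 and −0.02, on either side of 0, and the log2 fold change was −0.04 (SE 0.09, 95% interval −0.23 to 0.16, limma adjusted p = 0.817). Its other probe was above background on at most 1 array per condition and comparison, and did not pass the filter. For Hes1 the log2 ratios were −0.20, 0.02, −0.05 and −0.00, with a log2 fold change of −0.06 (SE 0.06, 95% interval −0.18 to 0.06, limma adjusted p = 0.519). The Hes1 probe was dim, well above background for APP_WT on 3 arrays and for WT on 2 of the 4, and the background offset lowers fold changes at this brightness. The interval of Hes1 did not reach the log2 fold change of Hes5.

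The sign was the same on all 4 arrays, in the direction of the call, for the 3 higher and the 2 lower genes. These genes were called from the same 4 ratios, so the shared sign describes the calls and is no separate evidence for them. Over all expressed probes, called or not, 15.1% were above 0 and 11.9% below 0 on all 4 arrays. These shares are not those of called probes and give no measure of how unusual the called genes were.

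The wider Notch pathway was described by lists of genes chosen for their roles. Of 53 listed genes 50 were expressed, and 14 of them passed the test between APP_WT and WT, 5 higher and 9 lower, with a median log2 fold change of −0.04 over the 50. Among all expressed genes 17.0% were higher and 8.03% lower, with a median of 0.01. With array median centring 1 was higher and 13 were lower. The 14 genes kept their sign under the 4 other scalings wherever they had a value. The number called fell to 8 without array 2 or array 3 and to 9 without array 4 of this comparison, to 9 with the fixed replicate block and to 6 within the slide. The 6 genes still called within the slide were Dll1, Hes5, Nrarp, Mfng, Psen2 and Neurl1a, and the random block gave 14.

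Of 4 expressed ligands, 2 were lower, Dll1 and Jag1. For Jag1 the log2 ratios were −0.32, −0.42, −0.07 and 0.01, so that array 4 did not share the sign (log2 fold change −0.20, SE 0.05, limma adjusted p = 0.0191). With the processed signals Jag1 was at −0.53. Dll3 and Jag2 had log2 fold changes of −0.07 and −0.04 and did not pass, and Dll4 was not expressed. None of the 4 receptors passed, although 1 passed as lower with the processed signals, the deposited log2 ratios or array median centring, and their log2 fold changes ran from −0.17 for Notch3 (limma adjusted p = 0.107) to 0.18 for Notch2 (limma adjusted p = 0.140).

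Of 17 expressed genes that process or activate the receptor and its ligands, 5 were higher and 2 lower. Psen2, a presenilin gene, had log2 ratios of 0.19, 0.17, 0.53 and 0.38 and a log2 fold change of 0.32 (SE 0.05, limma adjusted p = 0.00173), which was 0.19 and not called with array median centring (limma adjusted p = 0.0950). Aph1b, another gamma-secretase subunit, had a log2 fold change of −0.20 (SE 0.06, limma adjusted p = 0.0479) with array 3 above 0. The log2 fold changes of the gamma-secretase genes Ncstn, Aph1a and Psenen were 0.01, 0.06 and 0.08 and did not pass.

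Of the fringe glycosyltransferases, which tune the response of Notch to its ligands, Mfng was the one whose call held under each scaling. It fell, with log2 ratios of −0.32, −0.44, −0.59 and −0.69 and a log2 fold change of −0.51 (SE 0.05, limma adjusted p = 9.21e-05). Lfng had a log2 fold change of 0.22 (SE 0.07, limma adjusted p = 0.0435), and its call was lost with the processed signals (0.14, limma adjusted p = 0.417), the deposited log2 ratios (0.14, limma adjusted p = 0.391) and array median centring (0.19, limma adjusted p = 0.0906). Rfng was at −0.05 and did not pass. Neurl1a, whose product is a ubiquitin ligase of Notch ligands, was 0.40 higher on the log2 scale (SE 0.08, limma adjusted p = 0.00593). The protease gene Furin was 0.29 higher (SE 0.07, limma adjusted p = 0.0116), and 0.17 without a call under array median centring (limma adjusted p = 0.155). Pofut1, the O-fucosyltransferase of Notch, was 0.18 higher (SE 0.05, limma adjusted p = 0.0400). It did not pass with the processed signals (limma adjusted p = 0.0613), the deposited log2 ratios (0.0504) or array median centring, which put it at 0.030 (0.808).

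Of 6 inhibitors and modulators, Itch, a ubiquitin ligase, was lower (log2 fold change −0.24, SE 0.06, limma adjusted p = 0.0184). Numb, which antagonizes Notch, had a log2 fold change of 0.41 with an SE of 0.17 and did not pass (limma adjusted p = 0.129). Of 14 nuclear factors the corepressor gene Tle1 (log2 fold change −0.38, SE 0.09, limma adjusted p = 0.0134) and the acetyltransferase gene Ep300 (−0.26, SE 0.07, limma adjusted p = 0.0334) were lower. Ep300 was above 0 on array 3, and its log2 fold change was −0.515 with the processed signals. Rbpj itself had a log2 fold change of −0.11 (SE 0.05, limma adjusted p = 0.183).

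Of 5 expressed targets, 2 fell, Hes5 and Nrarp. Nrarp, a target that feeds back on the pathway, had log2 ratios of −0.81, −0.73, −0.73 and −0.67, and its log2 fold change of −0.73 (SE 0.07, limma adjusted p = 3.03e-05) was the lowest of the 50 genes. The size of the Nrarp change depended on the scaling. It was −2.03 with the processed signals, and the deposited log2 ratios gave no value for Nrarp. Hey1, Hey2 and Hes1 had log2 fold changes of 0.06, −0.04 and −0.06 and did not pass. Heyl was not expressed.

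**Figure D2:**
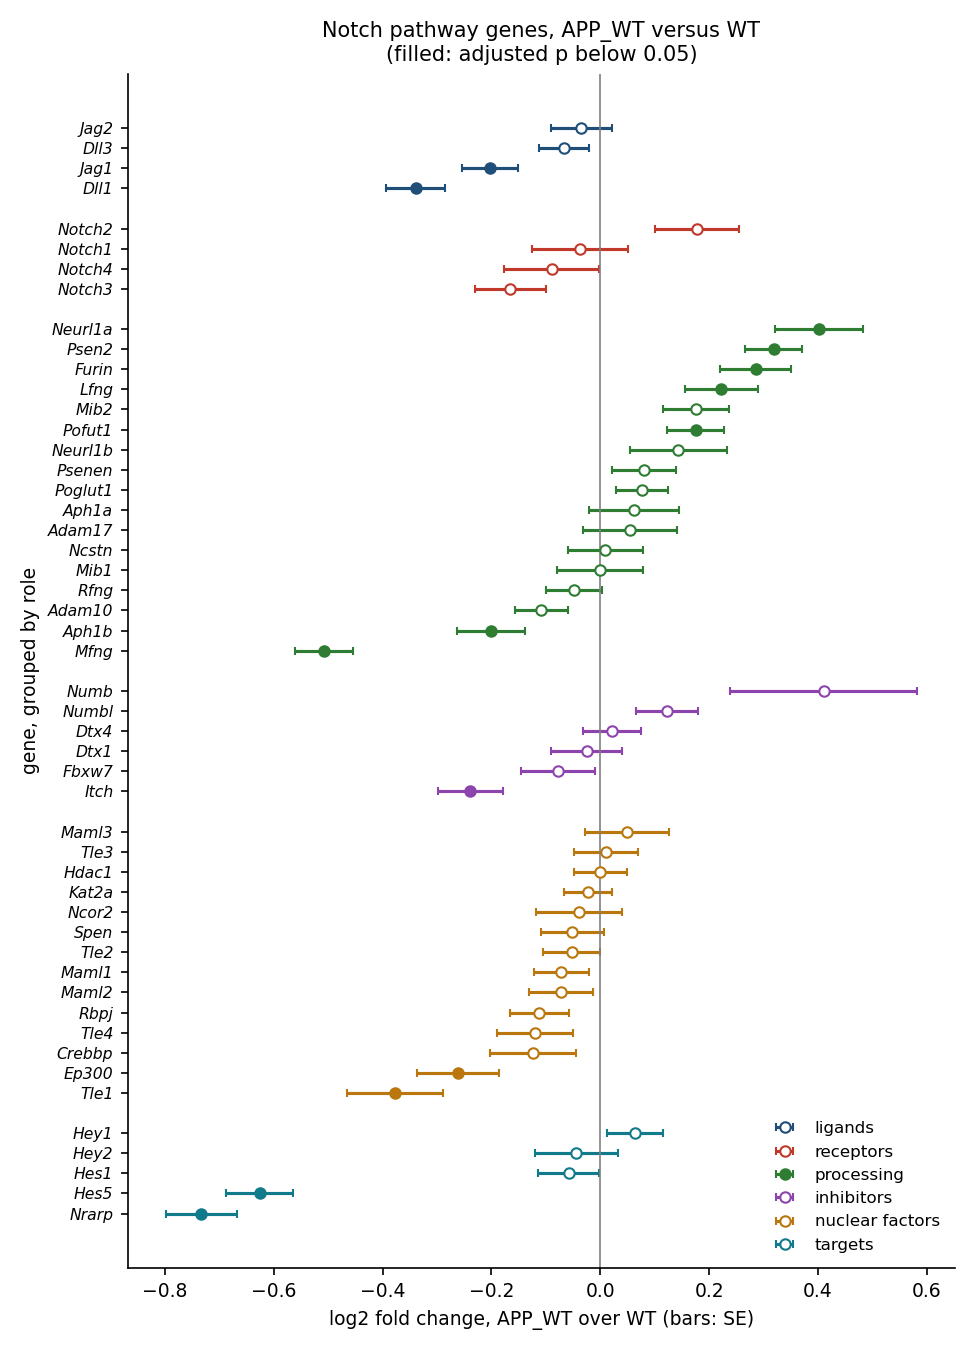
Log2 fold change between APP_WT and WT (horizontal axis, bars for the SE) of the 50 expressed Notch pathway genes (vertical axis, grouped and colored by role), filled where the limma adjusted p was below 0.05. The lowest values are those of the targets Nrarp and Hes5 and of the fringe gene Mfng, the receptors are all open, and the filled genes above 0 all belong to the processing group.

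The proneural list held proneural genes and also other genes of intermediate and differentiating progenitors. Of its 8 expressed genes 1 was higher and 1 lower, and both belong to the latter kind. Eomes, the gene of intermediate progenitors, had log2 ratios of 0.29, 0.51, 1.02 and 0.48 and a log2 fold change of 0.58 (SE 0.10, limma adjusted p = 0.00311). Insm1, a zinc finger gene of differentiating progenitors, had log2 ratios of −0.45, −0.58, −0.38 and −0.46 and a log2 fold change of −0.47 (SE 0.05, limma adjusted p = 0.000137). Neurog2 was at −0.16 (limma adjusted p = 0.176).

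Other genes used as neural stem cell markers were also divided. Of 27 expressed genes on the list, which includes Nes, Vim, Prom1, Sox2 and Fabp7, 8 were higher and 5 lower. Hopx, an outer radial glia and quiescent stem cell gene, had log2 ratios of 0.59, 0.51, 0.58 and 0.50 and a log2 fold change of 0.54 (SE 0.05, limma adjusted p = 4.21e-05). Slc1a3, the glutamate transporter of radial glia and astrocytes, was 0.43 higher (SE 0.05, limma adjusted p = 0.000120), and 0.25 without a call under array median centring (limma adjusted p = 0.0794). The transcriptional regulator Id2 had a log2 fold change of −0.53 (SE 0.07, limma adjusted p = 0.000362), the matrix gene Tnc −0.36 (SE 0.08, limma adjusted p = 0.00999) and the polycomb gene Bmi1 −0.23 (SE 0.06, limma adjusted p = 0.0133). Pax6 was at −0.16 (limma adjusted p = 0.0357) and Nr2e1 at −0.20 (limma adjusted p = 0.0459). Without background subtraction neither passed (limma adjusted p = 0.0991 for Pax6 and 0.06 for Nr2e1). Nr2e1 also did not pass with the processed signals (limma adjusted p = 0.0692) or the deposited log2 ratios (0.0572). With array median centring 4 of the 27 were higher and 8 lower, so that the balance of this list turned. Of 8 expressed proliferation genes none passed, with log2 fold changes from −0.07 to 0.17.

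Markers of other cells moved in the same comparison. Of 9 expressed microglia genes 8 were higher (median log2 fold change 1.16), and Cx3cr1 was at 2.31 and Aif1 at 2.21. With the processed signals and with the deposited log2 ratios the same number passed and the values were larger, with a median of 2.24, Cx3cr1 at 3.50 and Aif1 at 2.89. The summed level of the list, as log2 intensity, was 13.19 to 13.50 in WT and 13.62 to 14.01 in APP_WT, so that the ranges did not overlap, and P2ry12 was not expressed. Of 9 astrocyte genes 7 were higher, with a median of 0.30 and the largest values for Aqp4 (0.73) and Gfap (0.69), and the summed level was 16.62 to 16.91 in WT and 17.08 to 17.23 in APP_WT. With array median centring 3 of the 9 astrocyte genes passed. Vim is also expressed by astrocytes and microglia, and the part of these cells in the values of Vim, Nes and Prom1 was not tested.

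Of 10 neuron genes 2 were higher, Syt1 (0.43) and Gad1 (0.33), and 3 lower, Dcx (−0.54), Elavl3 (−0.34) and Map2 (−0.31), with summed levels of 16.59 to 16.82 in WT and 16.48 to 16.68 in APP_WT, which overlapped. Gad1 was not called with array median centring (limma adjusted p = 0.0825). Dll1 is a gene of newborn neurons and intermediate progenitors, and the part of these cells in its value was not tested. Of 10 oligodendrocyte genes Cspg4 was higher (0.32) and Olig2 lower (−0.21), and of 6 expressed pericyte and fibroblast genes 3 were lower, Lum (−0.62), Pdgfrb (−0.45) and Dcn (−0.25). Dcn was above 0 on arrays 1 and 2. Cspg4 was not called with the processed signals (limma adjusted p = 0.0952) or the deposited log2 ratios (0.08). Of 7 endothelial genes 3 were expressed, and none passed.

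**Figure D3:**
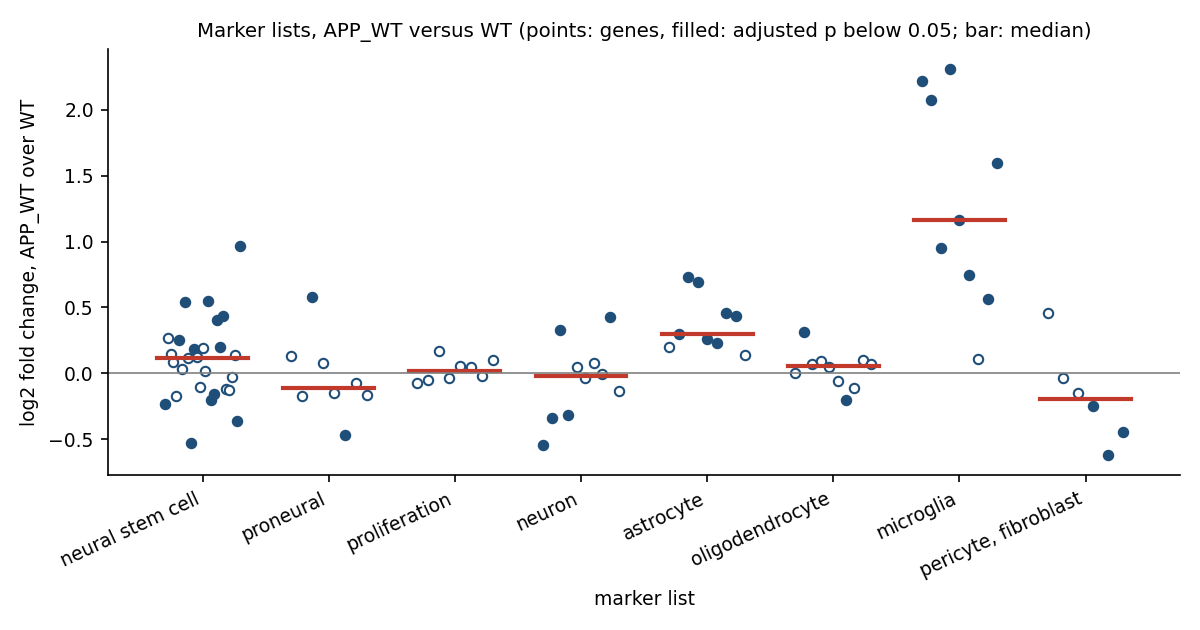
Log2 fold change between APP_WT and WT (vertical axis) of the expressed genes of each marker list (horizontal axis), with 1 point per gene, filled where the limma adjusted p was below 0.05, and a red bar at the median of the list. The microglia list has its median at 1.16 and the astrocyte list at 0.30, whereas the neural stem cell list has filled points on both sides of 0.

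The genes whose log2 ratios followed those of the called genes most closely over the 12 arrays were found among 14150 named genes without missing values. For Vim these were Plxdc2 (Pearson's r = 0.99), Cd44 (0.989), the receptor of hyaluronan, and Acod1 (0.986), an enzyme gene of activated macrophages. For Hes5 they were Tm7sf2 (0.969), a sterol reductase gene, Insm1 (0.960) and Zdhhc13 (0.951). For Dll1 they were Nmral1 (0.952), Bhlhe22 (0.948) and Brd1 (0.945), for Prom1 they were Hacd2 (0.961), Afap1l2 (0.957) and Tm4sf1 (0.956), and for Nes they were Psat1 (0.948), Slc19a2 (0.942) and Nacc2 (0.911). These correlations are descriptions across arrays of 3 comparisons that share the APP_WT condition and the dye layout.

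BK treatment left the 9 genes without a call. In BK_APP compared to APP_WT, limma called 0% of the expressed probes after adjustment, while 4.47% had an unadjusted p below 0.05, none of which was a probe of these genes. The log2 fold changes of the 9 genes lay between −0.05 (Notch1) and 0.11 (Vim), with limma adjusted p-values of 0.967 to 0.997. SAM and rank products, the tests named in the methods, called none of the 9 and 532 probes in all (1.83% of those tested).

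For Vim the log2 ratios of BK_APP to APP_WT were 0.21, 0.07, 0.19 and −0.02, and the log2 fold change of 0.11 had a 95% interval of −0.03 to 0.26. For Hes5 they were −0.10, 0.05, −0.07 and 0.19, on both sides of 0, with a log2 fold change of 0.02 (95% interval −0.12 to 0.16). For Dll1 they were −0.11, 0.01, 0.08 and 0.14, with a log2 fold change of 0.03 (95% interval −0.09 to 0.15). These intervals do not reach the size of the same genes' change between genotypes. For Nes the log2 ratios were 0.37, −0.29, 0.08 and −0.06, the widest spread beside that of Fabp7, and the log2 fold change was 0.03 (95% interval −0.30 to 0.35). Fabp7 again split by dye layout, with 0.42 and 0.12 on the arrays with BK_APP in Cy5 and −0.19 and −0.42 on those with BK_APP in Cy3. Sox2 did so in the other direction, with −0.14 and −0.13 against 0.17 and 0.08. None of the 9 genes had the same sign on all 4 arrays.

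The lists moved little. No gene of the Notch lists had an unadjusted p below 0.05 in BK_APP. Of all 14330 expressed genes, 7230 were above 0 and 7100 below 0 in BK_APP, and 7552 were above 0 in HOE_APP. All 8 expressed proliferation genes were above 0 in BK_APP, with a median log2 fold change of 0.13, and also in HOE_APP, with a median of 0.06. On array 2 their median log2 ratio was −0.04 in BK_APP and −0.11 in HOE_APP. Both treatment ratios share the APP_WT condition, so their signs are not independent. In BK_APP 3 of the proliferation genes had an unadjusted p below 0.05, Ccnb1 (0.29), Bub1 (0.18) and Pcna (0.14). All 10 neuron genes were below 0, with a median of −0.09, and Tubb3 (−0.14) had an unadjusted p of 0.0486. Adjusted over all probes none passed (limma adjusted p = 0.967 for each of these 4 genes). Among the microglia genes Aif1 (0.22), Trem2 (0.22) and Cx3cr1 (0.17) and among the astrocyte genes Slc1a2 (−0.22), Gfap (−0.20) and Aldoc (−0.12) had an unadjusted p below 0.05 and also did not pass after adjustment.

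In HOE_APP compared to APP_WT the picture was similar, with a direction that is likely only. Limma called 0% of the expressed probes after adjustment and 5.03% had an unadjusted p below 0.05, again none of them a probe of the 9 genes. Their log2 fold changes ran from −0.13 (Vim) to 0.12 (Hes5), with limma adjusted p-values of 0.924 to 0.997. SAM and rank products called none of the 9 genes and 677 probes in all (2.31% of those tested).

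Hes5 had log2 ratios of 0.07, 0.12, 0.16 and 0.11, all above 0 and close together, and a log2 fold change of 0.12 (SE 0.06, 95% interval −0.02 to 0.25). For Vim the log2 ratios were −0.00, −0.12, −0.28 and −0.14, all below 0 but the first at 0 to the precision printed, with a log2 fold change of −0.13 (SE 0.07, 95% interval −0.28 to 0.01). Over all expressed probes, 5.68% were above 0 and 5.00% below 0 on all 4 HOE_APP arrays. Dll1 had log2 ratios of −0.01, 0.03, 0.05 and 0.23 and a log2 fold change of 0.07 (95% interval −0.04 to 0.19). Nes varied most, with log2 ratios of 0.23, −0.47, −0.03 and 0.34. For Sox2 the signs again split by dye layout, and its log2 fold change was −0.02 (95% interval −0.12 to 0.08). The log2 fold changes of Prom1, Hes1, Fabp7 and Notch1 were −0.04, −0.04, −0.13 and 0.00. Both treatment comparisons share the APP_WT condition with the comparison of genotypes, so that their values stand side by side here and the signs were not set against each other as evidence.

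**Figure D4:**
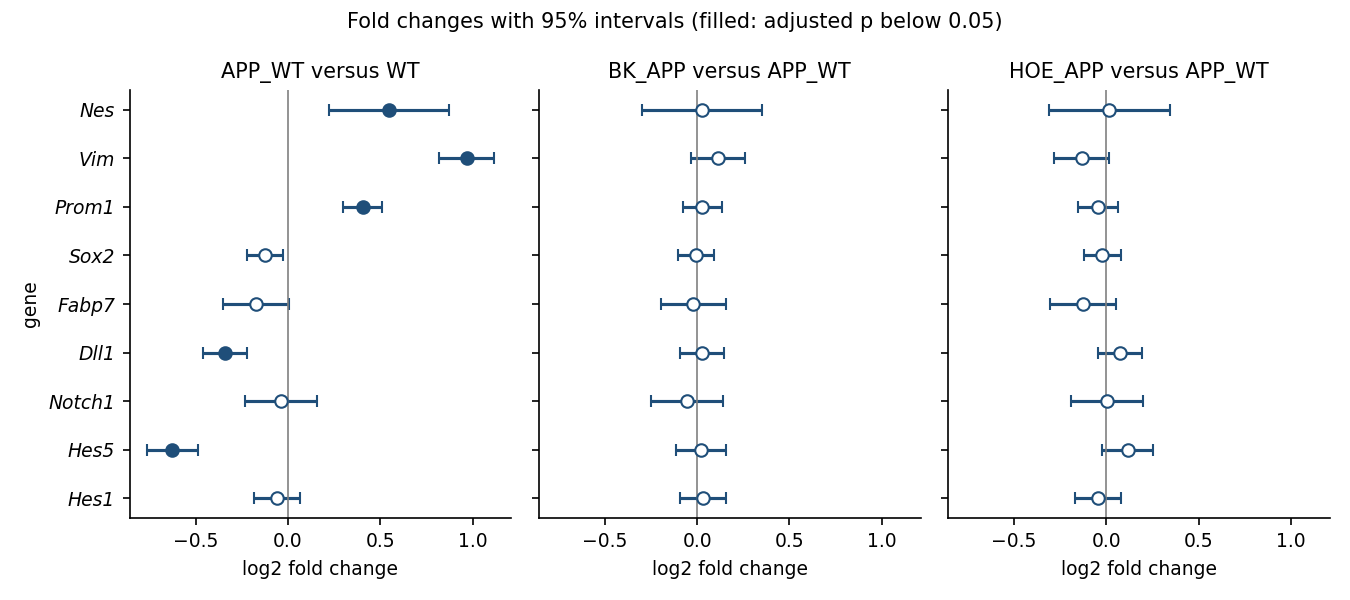
Log2 fold change (horizontal axis) with its 95% interval of each gene (vertical axis) in the 3 comparisons, filled where the limma adjusted p was below 0.05. All filled points are in APP_WT versus WT, where Vim reaches 0.97 and Hes5 −0.63, and in the treatment comparisons the points lie between −0.13 and 0.12.

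Of the Notch lists in HOE_APP, Psen2 (log2 fold change −0.15, unadjusted p = 0.0177) and the corepressor gene Tle4 (0.18, unadjusted p = 0.0285) were under an unadjusted 0.05, as were Insm1 (0.12, unadjusted p = 0.0402) on the proneural list and Sox9 (−0.12, unadjusted p = 0.0249) among the stem cell genes. None passed after adjustment in this limma fit. Tle4 was also the only gene of the Notch lists that SAM and rank products called here. All 9 microglia and all 9 astrocyte genes had log2 fold changes below 0, with medians of −0.08 and −0.10. The oligodendrocyte genes Mag (−0.28) and Mog (−0.16) had unadjusted limma p-values of 0.00186 and 0.0127. The summed level of the 10 oligodendrocyte genes ranged from 15.87 to 16.32 in HOE_APP and from 16.17 to 16.41 in APP_WT.

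BK, the agonist, and HOE-140, the antagonist of the same receptor, were given at the same dose and on the same days, so their log2 fold changes were compared directly in the model. For the difference BK_APP minus HOE_APP, limma called 0% of the probes after adjustment and 2.50% had an unadjusted p below 0.05. Of 9 genes compared, Vim alone was among the latter, with a difference of 0.25 (SE 0.09, 95% interval 0.04 to 0.46, unadjusted p = 0.0244), and its limma adjusted p was 1.00. With the sign of HOE_APP turned the difference was −0.02. The microglia gene Cx3cr1 differed by 0.35 (unadjusted p = 0.00404, limma adjusted p = 1.00) and all 9 microglia genes had differences above 0, and the part of these cells in the value of Vim was not tested. Of all 14330 expressed genes, 6860 had differences above 0. For the 8 genes besides Vim the differences lay between −0.10 (Hes5, 95% interval −0.29 to 0.10) and 0.11 (Fabp7, 95% interval −0.14 to 0.36). The interval was widest for Nes (−0.45 to 0.47). This fit took the arrays of both treatments as independent, although residual ratios of same-numbered arrays correlated at 0.423 to 0.432 between the treatments. Its intervals for the difference may therefore be too wide, and no limit of detection is read from them.

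As levels, log2 intensities of the same probe on the channel of each condition were compared within each gene. Same-numbered APP_WT channels of the 3 comparisons deviated together and were averaged, so that each condition had n = 4. Vim was lowest in WT at 14.53 ± 0.24 (SD, n = 4), and was at 15.43 ± 0.10 in APP_WT, 15.50 ± 0.06 in BK_APP and 15.27 ± 0.16 in HOE_APP. The highest WT value, 14.83, lay below the lowest of any transgenic channel, 15.04. Which of the transgenic conditions was lowest depended on the direction of the HOE_APP arrays, since their other channel was at 15.41 ± 0.10 and overlapped BK_APP. Hes5 was highest in WT at 14.15 ± 0.17 (n = 4), against 13.60 ± 0.14 in APP_WT, 13.65 ± 0.07 in BK_APP and 13.76 ± 0.13 in HOE_APP, with the lowest WT value (13.90) just above the highest of the others (13.88). Dll1 was also highest in WT at 9.32 ± 0.11, against 8.95 ± 0.09 in APP_WT, 8.93 ± 0.03 in BK_APP and 9.03 ± 0.08 in HOE_APP, with no overlap between WT (from 9.17) and the others (up to 9.11). With the channels of the HOE_APP arrays exchanged, HOE_APP would be at 13.64 ± 0.14 for Hes5 and 8.95 ± 0.10 for Dll1, so the transgenic conditions have no settled order. For Nes, WT was lowest (11.87 ± 0.20), and APP_WT (12.42 ± 0.29), BK_APP (12.43 ± 0.11) and HOE_APP (12.46 ± 0.18) lay within their spread.

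On the brighter Prom1 probe all 4 conditions overlapped as levels, from 11.14 ± 0.28 in WT to 11.42 ± 0.13 in APP_WT, although the ratio within each array was above 0. On the dimmer one WT reached 7.881, while HOE_APP began at 8.11 and the averaged APP_WT values at 7.957. Single APP_WT channels went down to 7.877 and so overlapped WT. The other pairs of conditions overlapped. The ranges of Sox2, Fabp7, Notch1 and Hes1 overlapped between all conditions. Notch1 had the widest spread in APP_WT, from 7.33 to 8.56.

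**Figure D5:**
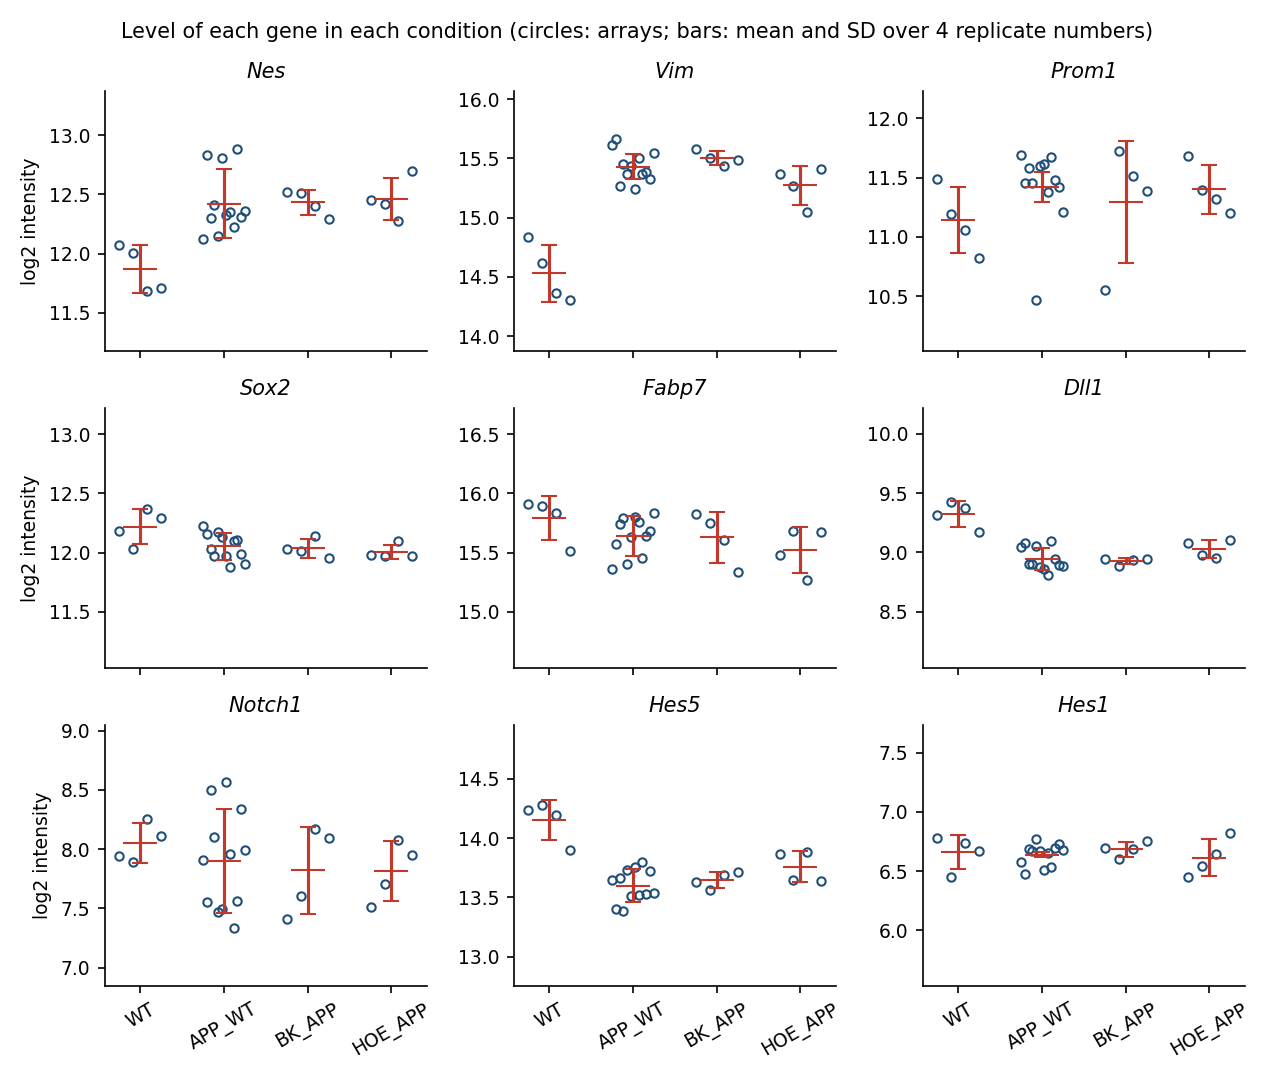
Log2 intensity (vertical axis, 1 panel per gene with the same span) in each condition (horizontal axis), with a circle for each array and, in red, the mean and SD over 4 replicate numbers. Vim and Nes are lower and Hes5 and Dll1 higher in WT than in the 3 transgenic conditions, which lie close to each other.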

How the data were processed

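RNA of neurospheres was hybridized to 12 two-color Agilent arrays, 4 for each of 3 comparisons. The authors deposited, per array, scanner intensity values of both channels (Feature Extraction 11.0.1.1 per the file headers), with median signals, local backgrounds, processed signals that the software had background-subtracted and dye-normalized, and its log10 ratio. They also deposited a table of normalized log2 ratios for which the sources used here give no method. Its scale and sign were set against the scanner values. The methods state 4 independent biological replicates per neurosphere model, and the sources do not say whether arrays of different comparisons share RNA. Same-numbered arrays were taken as paired from the data alone. APP_WT is the numerator of the first comparison and the denominator of the other 2, and the residual ratios of same-numbered arrays correlated at −0.507 to −0.206 between the first and the others and at 0.423 to 0.432 between the treatments. The differences between APP_WT channels of one dye layout correlated at 0.284 to 0.611 between comparisons, above every other pair of channels in 6 of 6 cases. Levels of APP_WT were therefore averaged over same-numbered arrays.

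Median signals were corrected with normexp (offset 50) against the local background and loess-normalized within each array (span 0.3), and 3671 control spots of 62976 were left out (limma 3.58.1 in R 4.3.3). Spots of a probe were averaged and ratios turned to numerator over denominator. A probe was expressed if well above background for 1 condition on at least 3 of 4 arrays of a comparison. One limma model over the 12 arrays held, per comparison, a mean and a dye coefficient, with Benjamini-Hochberg adjustment over 29361 probes and a threshold of 0.05. Intervals are 95% intervals of this fit. The pipeline was tested on simulated data. SAM and rank products were reprogrammed with 100 permutations.

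Of 29150 probes with a RefSeq accession, 27509 were named through the RefSeq table. A gene was represented by its brightest expressed probe. Coordinates are those of the promoter table (GRCm38.p6), and the array design used mm9. The median signal of an array was 63 to 94.5 in green and 89.5 to 117.5 in red, and 48.1% to 56.0% of spots were well above background. The small number of arrays limits the precision.

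The 9 genes and all lists were chosen with earlier results of these data known. Some list genes are not reported here by name. Named besides them were called list genes (at most 5 per direction and list by size), list genes under an unadjusted 0.05 in the treatment comparisons (at most 3 each) and, for each called gene, the 3 most alike in log2 ratio. Genes outside this rule that are named with values, such as Notch2, Notch3, Numb and Rbpj, were chosen after their values were seen. Alternatives covered background correction, processed signals, centring, the deposited table, filters, the dye coefficient, the replicate block, the fit within a slide, the sign of HOE_APP, the other probe of Prom1, SAM with rank products, and leaving out each array.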

Additional observations from a re-analysis of the deposited data

Results flagged for a closer look

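Of 90 groups of 4 arrays examined, 30 of them for the 9 genes, 2 held an array far from the other 3, and neither was a group of the 9 genes. The microglia gene Trem2 had a log2 ratio of 1.911 on array 1 of APP_WT versus WT, with a gap to the nearest array of 0.846 of the range. The astrocyte gene Gfap had −0.479 on array 2 of BK_APP versus APP_WT, with a gap of 0.977 of the range. Chance alone marks about 1 group in 20 by this measure.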

How the results depend on the processing

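The calls of Vim, Prom1, Hes5 and Dll1 held under each alternative run for them, and none of the 5 called values changed sign. In the treatment comparisons no member was called by any alternative. Array median centring called 4 of the 9 genes lower in APP_WT (Sox2 and Fabp7 added), and leaving out 1 array left 2 to 3 higher. The 14 called Notch pathway genes became 9 with no dye coefficient, 9 with the fixed replicate block over all arrays, 6 within the slide, 8 with SAM and rank products and 8 to 13 with 1 array left out (8 without APP_WT versus WT array 2 or 3, 9 without array 4). Over all probes, 3392 were called higher and 2054 lower, against 2799 and 1371 with the fixed block, 1876 and 495 within the slide and 3529 in all with SAM and rank products. The cause was not tested. The fixed block, which gives same-numbered arrays one shift in all comparisons, ended the call of Nes (log2 fold change 0.55, limma adjusted p = 0.0570) and no other call of the 9 genes. The random block, which turns APP_WT versus WT so that a shared APP_WT sample shifts all ratios one way, changed no call of the 9 genes and gave 14 Notch pathway genes. A fixed block over the 8 treated arrays called none of the 9 genes, but 5 probes higher and 44 lower in HOE_APP, where the random block called none. It takes the deviations of APP_WT out of the spread although they remain in the mean. The last 2 blocks were chosen after seeing the data.

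Of 31 values that were not called, 26 changed sign under at least 1 alternative. With the HOE_APP sign turned, the log2 fold changes of HOE_APP were −0.074 for Dll1, 0.13 for Fabp7, 0.045 for Hes1, −0.12 for Hes5, −0.016 for Nes, −0.0040 for Notch1, 0.045 for Prom1, 0.021 for Sox2 and 0.13 for Vim, and the differences BK_APP minus HOE_APP were 0.10 for Dll1, −0.15 for Fabp7, −0.013 for Hes1, 0.14 for Hes5, −0.017 for Prom1, −0.025 for Sox2 and −0.021 for Vim. Array median centring gave in BK_APP 0.091 for Fabp7 and 0.079 for Sox2, in HOE_APP 0.030 for Fabp7, −0.0078 for Notch1, 0.088 for Prom1, 0.11 for Sox2 and 0.024 for Vim, and as differences −0.039 for Nes and −0.034 for Sox2. Processed signals and deposited log2 ratios both gave 0.024 for Fabp7 and 0.0097 for Sox2 in BK_APP. No background subtraction gave 0.034 for Notch1 in APP_WT and −0.011 in HOE_APP, and the other probe of Prom1 gave −0.027 in BK_APP. With 1 array left out, values ran in APP_WT from −0.11 to 0.039 for Notch1. In BK_APP they ran from −0.0036 to 0.060 for Dll1, −0.096 to 0.056 for Fabp7, −0.044 to 0.085 for Hes5, −0.14 to 0.19 for Nes, −0.19 to 0.079 for Notch1 and −0.028 to 0.020 for Sox2. In HOE_APP they ran from −0.10 to 0.011 for Hes1, −0.16 to 0.19 for Nes and −0.049 to 0.057 for Notch1, and as differences from −0.16 to 0.18 for Nes, −0.19 to 0.075 for Notch1 and −0.0076 to 0.041 for Sox2. Dim signal limits Hes1, and saturation was not seen for the 9 genes.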
